A study of Mus musculus with 7 samples.

Results

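The comparison set colon of the last 3 embryonic days against colon of the 3 days before them, over every gene that the arrays name. The late arrays were those of E16.5, E17.5 and E18.5, with E13.5, E14.5 and E15.5 as the early ones, so 6 of the 7 arrays of the series entered, and the adult array was set beside the result afterwards. Colon came from inbred C57BL/6 mice with no genetic change or treatment, and their total RNA was read on arrays of the type Mouse Genome 430 2.0, made by Affymetrix, by sets of short probes to each transcript. Adult mice were 8 weeks old. Each day had 1 array, so the 3 days of a side stood in for replicates, and the spread within a side held the change from day to day together with any difference between animals. How many embryos were pooled for an array is not given in the sources used here.

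In mouse, the colon of these days changes from a thick tube of dividing endoderm inside loose mesenchyme to a folded mucosa. The inner lining, the epithelium, gives rise to absorptive colonocytes, to goblet cells that secrete mucus, and to scattered hormone cells. Around it the mesenchyme forms fibroblasts with their collagen, layers of smooth muscle, vessels and, from neural crest cells that have migrated in, the enteric nerves. In bulk RNA, more cells of a type and more RNA of a gene per cell cannot be told apart.

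Values are log2 intensities normalized by RMA, with the median taken where a gene has several probe sets, for 18194 genes. On all 6 arrays the median gene lay close to the same level, between 6.11 and 6.14 on the late arrays and at 6.07 on the early arrays. Shortened RNA lowers the signal of 5′ probes below that of 3′ probes, and for Gapdh this difference was −1.44, −1.29 and −1.38 on the late arrays and −1.48, −1.33 and −1.59 on the early arrays, so the sides overlapped. The tissue label was checked with marker genes. Cdx2, the homeobox factor of the intestinal lining, read 8.90, 9.07 and 9.03 on the late arrays and 8.58, 8.75 and 8.81 on the early arrays, and Actg2, the actin of gut muscle, lay above 11 on all 6. Of the hindgut genes, Hoxd13 lay between 7.06 and 7.32 on the late arrays and between 6.96 and 7.17 on the early arrays, while Hoxa13 stayed at or under 5.14, which is under the off level defined below. Over the 6 arrays Hoxd12 read 5.687 to 6.145 and Hoxd11 4.74 to 5.59. Nkx2-3, a factor of gut mesenchyme, read 5.49 to 5.85, and the vessel genes Pecam1 and Cdh5 read 5.30 to 5.67 and 5.334 to 5.575. The epithelial genes Hnf4a and Cdh17, the mesenchyme factor Foxf1, the muscle gene Myh11 and the enteric nerve gene Ret read 6.09 or above. Pdx1, Gata4, Ptf1a, Myod1, Myog and Pax8, markers of upper gut, pancreas, skeletal muscle and kidney, were below 5.2 on all 6 arrays. Other markers of those and of squamous tissues read higher. Sox2, the SOX factor of foregut that neural crest cells also carry, read 6.70, 6.18 and 6.20 on the late arrays and 6.70, 7.07 and 7.83 on the early arrays. Barx1, a homeobox factor of stomach mesenchyme, lay between 6.11 and 6.21 on the late arrays and between 5.84 and 6.34 on the early arrays, and Atp4b, a subunit of the stomach proton pump, between 6.75 and 6.81 and between 6.62 and 6.75. The pancreatic enzyme Cpa1 lay between 5.62 and 5.65 on the late arrays and between 5.6 and 5.65 on the early arrays, the squamous keratin Krt5 between 6.85 and 7.07 and between 6.95 and 7.0, and Trp63, a factor of squamous cells, between 5.30 and 5.43 and between 5.18 and 5.30. Of these only Sox2 moved by more than 1 among the 6 arrays. Alb, the liver albumin, lay between 6.69 and 6.77 on the late arrays and between 6.24 and 6.71 on the early arrays. Afp, made by fetal liver and yolk sac, was uneven, with 6.31, 8.02 and 9.51 on the late arrays against 7.92, 8.14 and 7.43 on the early arrays.

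Rises in late colon were mostly larger than falls. In the gene lists read below, which hold only a part of the genes that changed, mucosal genes more often rose, and genes of growth and the embryonic state more often fell. Large changes outside these groups included a rise of the matrix gene Dpt and a fall of the globin Hbb-y. A gene was counted as separated when its 3 late values all lay above its 3 early values, or all below. By this rule 2638 genes were higher in late colon and 2579 were lower, together 28.7% of all genes. The moderated test of limma on the difference of the side means at a limit of 0.05 on the adjusted p called 645 genes higher (3.55%) and 719 lower (3.95%), and each of them was also separated. On the deposited values the counts were alike in both directions but the sizes were not. With centred arrays, given below, the counts were no longer alike. The median difference of the called genes was 0.99 on the log2 scale among those that rose and −0.60 among those that fell. At least a 2-fold difference was reached by 316 of the called higher genes and 62 of the called lower genes, at least a 4-fold difference by 89 and 2, and at least a 16-fold difference by 15 and 1. The distance between the nearest late and early values was at least 1 in 121 genes that were higher and in 4 that were lower.

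Of 488 genes at least 2-fold higher in late colon by their means, 19 overlapped between the sides, and of 92 at least 2-fold lower, 2 overlapped. Among the 19 was Apoc3, an apolipoprotein of chylomicrons, with 5.43, 7.92 and 9.24 in late colon against 5.14, 5.15 and 5.52 in early colon. Its E16.5 value lay inside the early range. The 2 genes of the other direction were Ntsr1, a neurotensin receptor, and Gdnf, the growth factor that draws neural crest cells into the gut, which read 6.37, 6.03 and 5.94 in late colon against 8.01, 7.25 and 6.32 in early colon. In both genes the E15.5 value lay inside the late range. These 3 genes were named after their values were seen.

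**Figure D1:**
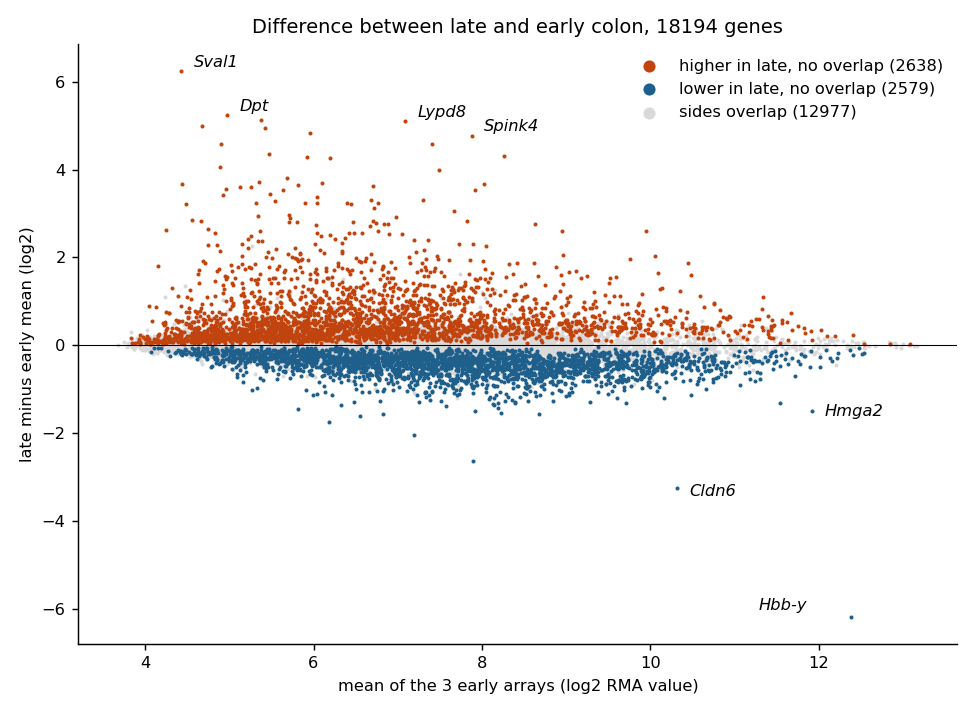
Each point is 1 of 18194 genes, with the mean of the 3 early arrays on the horizontal axis (log2) and the late minus early mean on the vertical axis (log2). The 2638 genes higher in late colon without overlap reach up to 6.24, while of the 2579 lower genes Hbb-y (−6.17) and Cldn6 (−3.24) stand apart from the rest.

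How many genes were called depended on which array was left out. No gene passed an adjusted p of 0.05 without E13.5, E14.5, E17.5 or E18.5, where the smallest adjusted p over all genes was 0.0584, 0.0807, 0.139 and 0.0844, while 936 higher and 1899 lower genes passed without E15.5 and 1024 and 702 without E16.5. All 645 higher and all 719 lower genes kept their direction in each of these 6 fits, which their lack of overlap fixes in advance. They also kept an unadjusted p under 0.05 there. Having been chosen by small p-values on the same arrays, they gain no separate support from this. Unadjusted, the full fit had 2229 higher and 2410 lower genes at that limit. Centring each array on its own median gave 1989 separated higher and 4271 separated lower genes, and 617 and 1001 called.

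Genes that switched were sought as those at or under the level of unused genes on all 3 arrays of one side and at least 1 above it on all 3 of the other. The off level was 5.35, the 90th percentile over the 6 arrays of 74 olfactory, vomeronasal and taste receptor genes, and the on level was 6.35. Under this rule 4878 genes were off on all 6 arrays and 7122 were on. The off-to-on genes, off in early colon and on in late colon, numbered 11 (0.0605%), and the on-to-off genes numbered 0 (0.0%). Of the 11, Reg3b, Insl5 and Gcg belong to a gene list used here.

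Sval1, which encodes a small secreted protein related to a seminal vesicle antigen, had the largest difference of all genes. It read 8.83, 11.18 and 11.98 in late colon against 4.55, 4.49 and 4.25 in early colon, a 75.5-fold difference (6.24 ± 0.74 on the log2 scale, SE, adjusted p = 0.0225). Reg3b, an antibacterial lectin that gut epithelium secretes, read 8.46, 10.20 and 10.33 in late colon against 4.79, 4.54 and 4.70 in early colon, and rose 31.8-fold (adjusted p = 0.0225). Both were already far above background at E16.5, with no sign of a gain over the 3 early days.

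Hormone genes of the enteroendocrine L cell formed the next group. Insl5, a peptide hormone of colonic L cells, read 7.98, 10.28 and 10.22 in late colon against 4.78, 4.73 and 5.19 in early colon (4.59 ± 0.61, adjusted p = 0.0233). Gcg, whose precursor protein gives rise to the glucagon-like peptides in the gut, read 6.70, 8.84 and 8.77 in late colon against 4.45, 4.43 and 4.45 in early colon (3.66 ± 0.55, adjusted p = 0.0244). Both genes read about the same at E18.5 as at E17.5. Pyy, the L cell peptide YY, was not off in early colon but rose with them, with 9.26, 11.25 and 11.28 in late colon against 7.30, 7.07 and 7.53 in early colon.

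Lgals3, the lectin galectin-3 of mature surface cells, read 6.88, 8.95 and 9.76 in late colon against 4.92, 4.68 and 5.29 in early colon (adjusted p = 0.0350). Hepacam2, an adhesion molecule of the immunoglobulin family, read 6.71, 7.63 and 7.89 in late colon against 4.14, 4.32 and 5.23 in early colon. With Slc12a8 and Kcnk6 it was 1 of 3 among the 11 that climbed on each day. Mptx1, a mucosal pentraxin, read 6.39, 9.27 and 10.94 in late colon against 5.34, 5.12 and 5.33 in early colon, and did not pass the test (adjusted p = 0.0887), its late values being the most spread of the 11. It was also the gene with the least room under the off level.

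The remaining 4 genes serve metabolism and transport. Ugt2b5, a glucuronosyltransferase that conjugates steroids and foreign compounds, rose 9.29-fold, and Otc, the urea cycle enzyme ornithine transcarbamylase, rose 5.88-fold. Slc12a8, a member of the cation-chloride cotransporter family, and Kcnk6, a potassium channel, rose 4.88-fold and 3.54-fold. The late values of these 4 genes lay between 6.38 and 8.33 and the early values between 4.13 and 5.21, so the gap between the sides was over 1 in each.

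**Figure D2:**
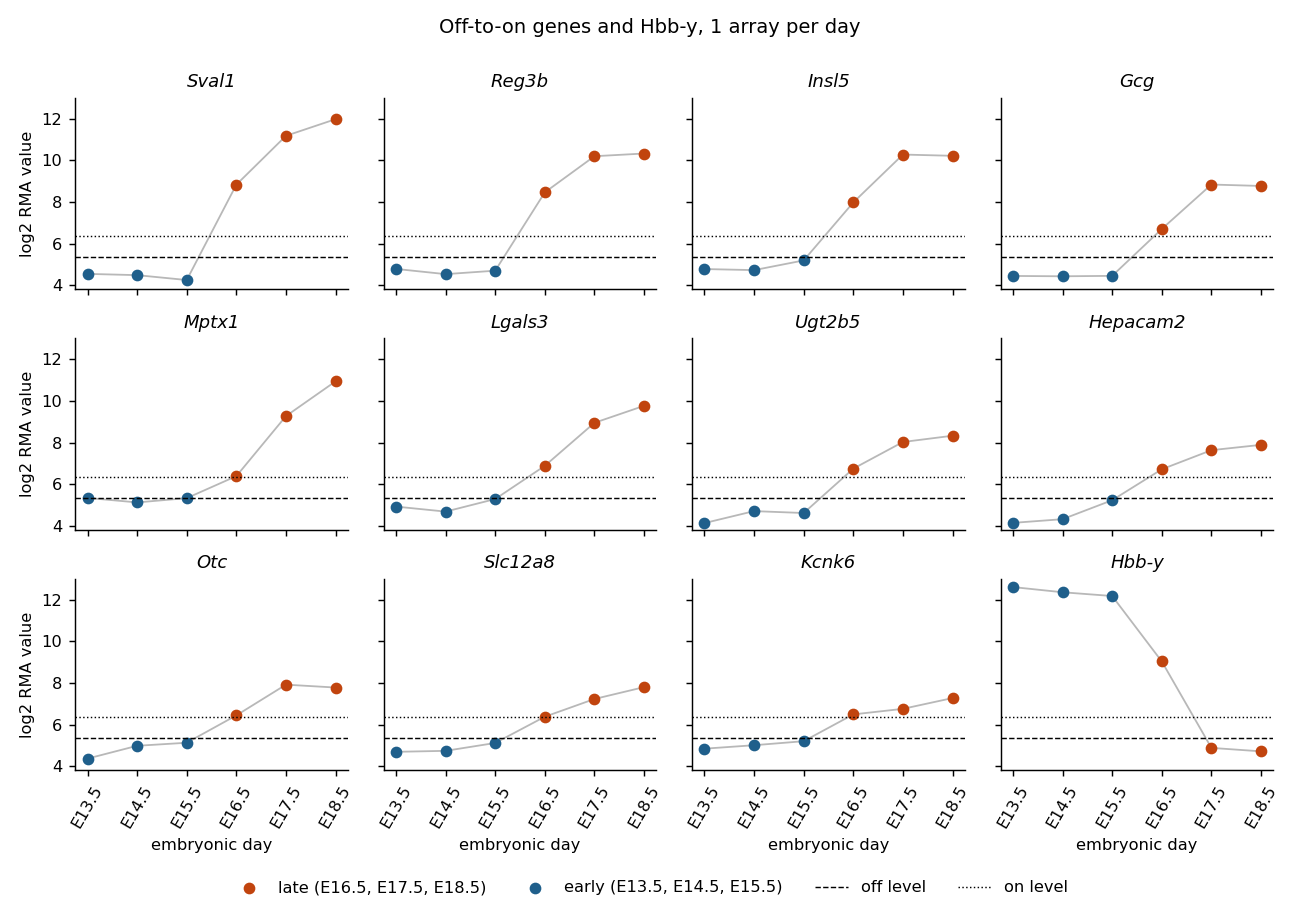
Each panel plots the log2 RMA value of 1 gene against embryonic day, with 1 array a day, late days in orange and early days in blue, and the off level (5.35) and on level (6.35) as dashed and dotted lines. The 11 off-to-on genes stay under the dashed line up to E15.5 and lie above the dotted line from E16.5, while Hbb-y is at 9.04 at E16.5 and under the dashed line at E17.5 and E18.5.

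The border of the rule ran close to several genes. Slc12a8, with 6.38 at E16.5, was the member nearest to the on level, and Mptx1, with 5.34 at E13.5, the one nearest to the off level. Just outside lay Klk11, a secreted kallikrein protease, and Atp12a, the potassium-transporting proton pump of the colon surface, whose E15.5 values of 5.38 were 0.03 above the off level. Atp12a read 6.78, 9.45 and 10.62 in late colon against 4.76, 4.52 and 5.38 in early colon. Atoh1, the transcription factor that commits gut cells to the secretory fate, missed the on level at E16.5, with 6.25, 7.18 and 6.73 in late colon against 4.86, 5.03 and 5.19 in early colon. The number of off-to-on genes was 3 with the on level set 2 above the off level, 21 without E15.5 and 33 without E16.5. Of those counts 3, 10 and 10 genes were among the 11. The number was 16 with the probe set of highest mean and 14 with the off level at the 95th percentile. In both, 8 genes were among the 11. In the falling direction 2 genes met the on-to-off rule in an alternative, Hbb-y without E16.5 and Zfp141 without E18.5 or with centred arrays. Zfp141, a zinc finger gene, read 5.15, 5.04 and 5.38 in late colon against 6.67, 6.39 and 6.38 in early colon.

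Stretches upstream of the transcription start are shown for 2 off-to-on genes and for 2 called mitosis genes, to show the short motifs that are counted after them. The stretches are the 100 bases before the start, from RefSeq on GRCm38.p6. In Gcg (chr2:62483654-62483753, minus strand) and Reg3b (chr6:78370785-78370884, plus strand) the capitals mark TATAAA on either strand, the core of the TATA box. In Bub1 (chr2:127831860-127831959, minus strand) and Kif11 (chr19:37376282-37376381, plus strand) they mark CCAAT and TTTGAA on either strand, the second being the cell cycle homology region known from promoters of mitosis genes.
Gcg: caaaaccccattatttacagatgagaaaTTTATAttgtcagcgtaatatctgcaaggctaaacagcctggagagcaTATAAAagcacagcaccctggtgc
Reg3b: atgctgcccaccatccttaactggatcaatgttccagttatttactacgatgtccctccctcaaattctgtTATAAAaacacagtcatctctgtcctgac
Bub1: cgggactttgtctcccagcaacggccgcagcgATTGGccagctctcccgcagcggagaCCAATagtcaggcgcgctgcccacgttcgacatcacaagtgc
Kif11: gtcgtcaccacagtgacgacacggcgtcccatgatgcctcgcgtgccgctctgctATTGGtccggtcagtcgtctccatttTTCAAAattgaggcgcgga

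TATAAA stood 24 bases before the start in Gcg and 29 bases before it in Reg3b, and Gcg had a match on the opposite strand at 72 bases. Of the off-to-on genes, 10 of 11 had a promoter in the table, and 5 of these (50%) held TATAAA on either strand within 250 bases before to 50 after the start, against 9.87% of 14453 promoters of measured genes. Among the 5, the TATAAA of Hepacam2 stood 233 and 235 bases before the start, and Insl5 and Mptx1 held it only on the opposite strand. TTTGAA was in 7 of the 10 (70.0%), against 13.4%. The 10 promoters were rich in A and T, with a median GC content of 44% against 58.7% over all measured genes, and the part of base composition in these shares was not tested. Over all genes that rose, TATAAA was in 10% of 510 promoters and TTTGAA in 12.2%. Matches to CAAAGTCCA, a site of the HNF4 type, were in 0 of the 10 against 0.464% of all promoters, and matches to GTTAATG (HNF1 type) and to TTTATGG (CDX type) were in 1 each, against 1.40% and 2.08%. In the mitosis list, 19 of 24 promoters (79.2%) held CCAAT and 19 of 24 held TTTGAA, against 38.2% and 13.4% of all promoters, while the 591 promoters of called lower genes held them in 42.5% and 13.7%. Motif matches are a description of these letters in this window.

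The genes of 49 lists show which cell types and processes stood on each side. The lists hold 976 measured genes, with 140 of the 645 genes called higher and 51 of the 719 called lower. Each list is read beside the background of 3.55% called higher and 3.95% called lower and beside the median difference over all genes, 0.007. Counts without overlap have a wider background, 28.7% of all genes, with 2638 higher and 2579 lower. At an unadjusted p under 0.05 in limma the background is 12.3% higher and 13.2% lower.

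**Figure D3:**
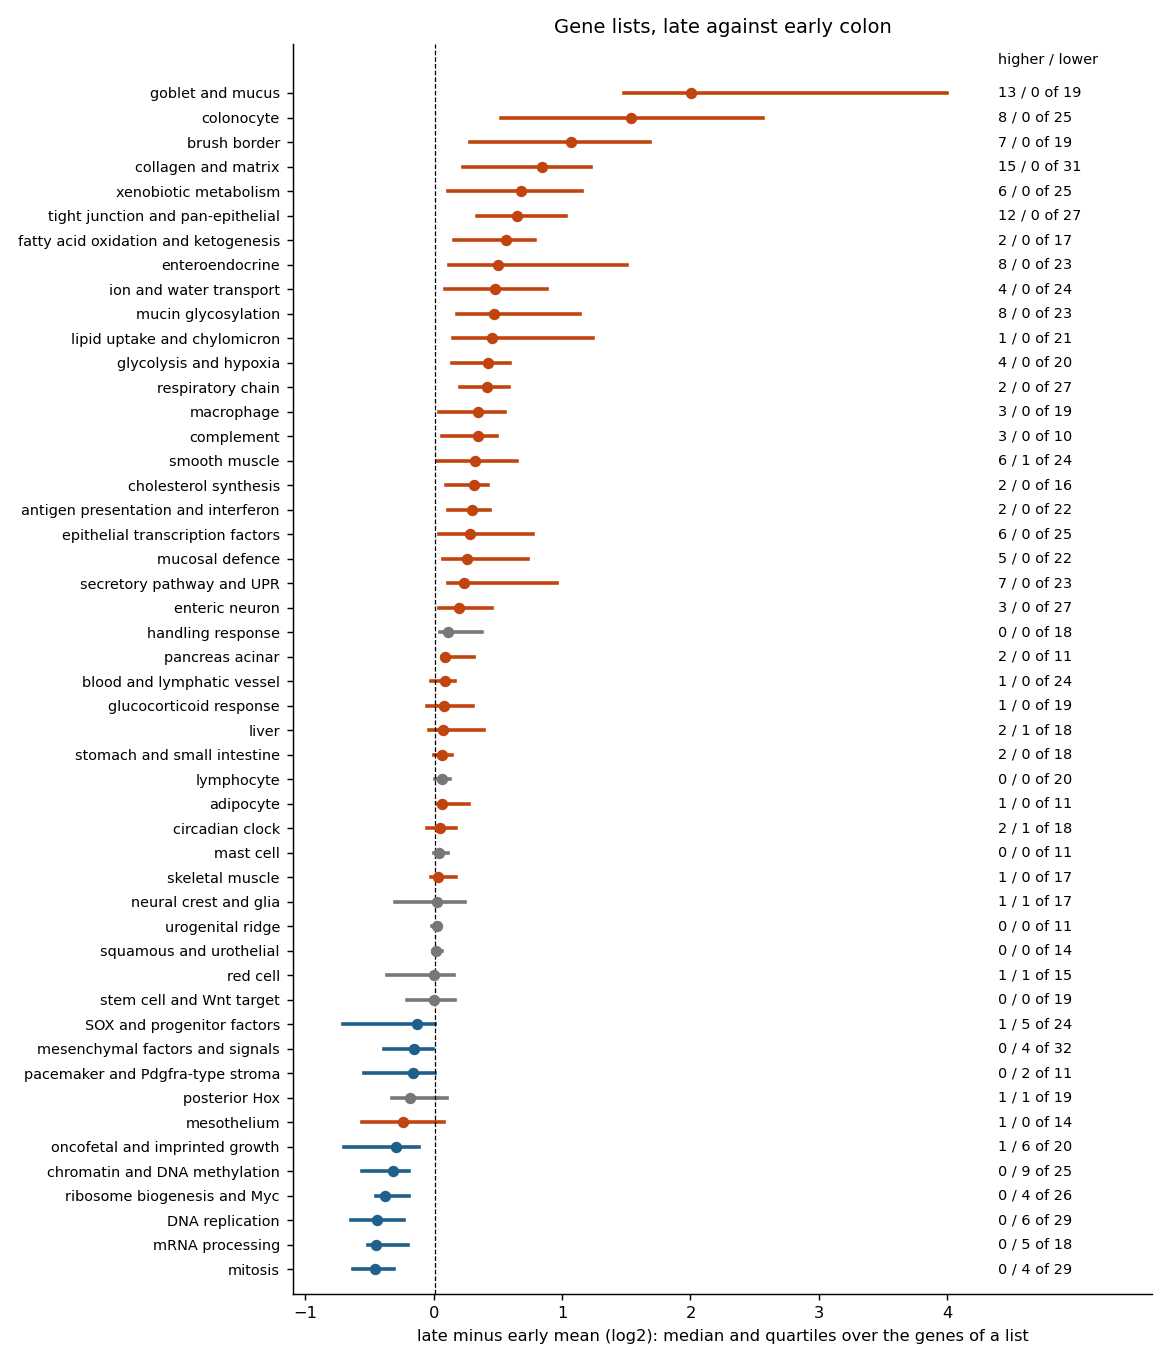
For each of 49 gene lists the point is the median late minus early difference (log2) over its measured genes and the bar runs between the quartiles, with the genes called higher and lower printed at the right and the median over all genes as a dashed line. Goblet and mucus genes stand at the top with a median of 2.00 and 13 of 19 called higher, and mitosis genes at the bottom with −0.46 and 4 of 29 called lower.

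Goblet and mucus genes moved furthest. All 19 were higher in late colon without overlap, 13 were called higher (18 at an unadjusted p under 0.05), and their median difference was 2.00. Fcgbp, a large protein of the mucus gel, read 9.48, 11.09 and 11.79 in late colon against 5.79, 6.12 and 5.95 in early colon (4.83 ± 0.54, adjusted p = 0.0225). Spink4, a protease inhibitor of goblet cells, read 12.49, 12.65 and 12.81 in late colon against 6.61, 7.48 and 9.53 in early colon (4.77 ± 0.68, adjusted p = 0.0240). These 2 genes took different courses, Fcgbp lying flat until E15.5 and Spink4 climbing through all 3 early days. Agr2, the disulfide isomerase needed for mucin folding, read 11.65, 12.02 and 12.30 in late colon against 5.80, 7.29 and 9.12 in early colon, and Clca1, a protease of mucus, 8.99, 9.81 and 10.67 against 5.21, 5.36 and 5.83. Muc2, the mucin that builds the gel and a gene named here after its values were seen, read 7.66, 10.36 and 11.38 in late colon against 5.99, 6.07 and 6.25 in early colon but missed the threshold (adjusted p = 0.0537). Tff3, the trefoil peptide, and Spdef, the factor that drives goblet cell maturation, rose by 4.31 and 2.00 (adjusted p = 0.0233 in both). Klk1, a tissue kallikrein of these cells, rose by 3.22 ± 0.19 with a tight spread on both sides, 9.32, 9.76 and 9.90 in late colon against 6.45, 6.17 and 6.71 in early colon. Of 23 mucin glycosylation genes, 8 were called higher and 0 lower (16 and 1 at an unadjusted p under 0.05), among them St6galnac6, a sialyltransferase, by 1.92, and Fut2, the fucosyltransferase of secreted glycans, by 1.48. Of 23 genes of the secretory pathway and its stress response, 7 were called higher and 0 lower (11 and 1 unadjusted). Creb3l4, a membrane-bound transcription factor of secretory cells, rose by 2.32, and the endoplasmic reticulum enzyme Pdia5 by 1.51.

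Colonocyte genes came next, with 8 of 25 called higher and 0 lower (17 and 0 at an unadjusted p under 0.05) and a median of 1.53. Lypd8, an anchored protein that keeps flagellated bacteria off the surface, read 11.24, 12.46 and 12.87 in late colon against 5.88, 7.27 and 8.11 in early colon (5.10 ± 0.64, adjusted p = 0.0233). Guca2a, the peptide guanylin that steers salt and water secretion, read 10.41, 11.92 and 12.11 in late colon against 6.73, 7.52 and 8.24 in early colon. Sult1b1, a sulfotransferase, and Ceacam1, a cell adhesion molecule, rose by 2.9 and 2.81. The 17 members that were not called included Aqp8, the water channel of colonocytes, with 5.28, 6.15 and 7.62 in late colon against 5.35, 5.57 and 5.53 in early colon, and Cyp2c55, a cytochrome P450, with 4.37, 4.68 and 6.99 against 4.09, 4.23 and 4.39. Both lay above the early range at E17.5 and E18.5 but not at E16.5, and both were named after their values were seen. Among 19 brush border genes 7 were called higher and 0 lower (13 and 0 unadjusted). Myo1a, the myosin of microvilli, rose by 2.55, Anpep, an aminopeptidase, by 1.90, Vil1, the actin bundler villin, by 1.79, and Myo7b, a myosin of the tips of microvilli, by 1.57. Of 27 tight junction and general epithelial genes 12 were called higher and 0 lower (20 and 0 unadjusted), with a median of 0.65. Krt19 read 11.38, 11.92 and 11.91 in late colon against 9.61, 10.28 and 10.37 in early colon, and Krt8 read 11.88, 12.14 and 12.20 against 10.11, 10.60 and 10.72, both being keratins of simple epithelia. Ehf, an epithelial ETS factor, rose by 1.67, and Krt18 rose by 1.13. With its probe set of highest mean Ehf differed by 2.96 but was not called (adjusted p = 0.122). Epcam, present in all gut epithelial cells, differed by 0.53 ± 0.23 and was not called (adjusted p = 0.217).

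Transport and metabolism of the lining gave fewer calls. Of 24 ion and water transport genes 4 were called higher and 0 lower (12 and 1 at an unadjusted p under 0.05). These were Atp12a, by 4.06, Slc5a8, a carrier of short-chain fatty acids and lactate, by 3.31, Atp1b1, a subunit of the sodium pump, by 2.91, and the potassium channel Kcnn4 by 0.75. With its probe set of highest mean Atp1b1 differed by 1.41 and was not called (adjusted p = 0.0846), while Kcnn4 rose by 1.29. Slc5a8 read 9.02, 10.38 and 10.55 in late colon against 5.06, 7.38 and 7.58 in early colon. Of 21 lipid uptake and chylomicron genes 1 was called higher, Acsl5, an acyl-CoA synthetase, by 0.94, although 11 were higher without overlap. Fabp2, the intestinal fatty acid binding protein and again named after its values were seen, read 7.24, 10.35 and 10.80 in late colon against 5.69, 6.00 and 5.76 in early colon (adjusted p = 0.0570). The E16.5 value stood well below the 2 later ones, as in Muc2. Among 17 genes of fatty acid oxidation and ketogenesis 2 were called higher, the mitochondrial enzymes Acaa2 by 0.87 and Acadl by 0.67, and among 25 xenobiotic metabolism genes 6 were called higher, led by Sult1b1, by the cytochrome Cyp3a13 with 2.37 and by the dehydrogenase Adh1 with 1.99. These 3 lists held 0 called lower genes, and unadjusted they held 10, 9 and 13 higher and 1, 0 and 0 lower genes.

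Mucosal defence held 5 called higher genes of 22. Dmbt1, a scavenger receptor protein secreted into mucus, read 8.74, 11.05 and 11.75 in late colon against 5.12, 5.23 and 5.80 in early colon (5.13 ± 0.73, adjusted p = 0.0240), and Pglyrp1, a protein that binds bacterial peptidoglycan, read 9.42, 10.33 and 10.88 against 5.05, 5.98 and 6.74 (4.28 ± 0.51, adjusted p = 0.0225). S100a8 and S100a9, the calprotectin subunits of neutrophils, rose by 0.73 and 0.74 from low values. The list median was 0.26, and 11 of the 22 genes had an early mean at the off level. At an unadjusted p under 0.05 the list had 8 higher genes and 0 lower. Enteroendocrine genes numbered 8 called higher of 23, and besides Insl5, Gcg and Pyy the granule protein Chgb rose by 2.57, with 8.58, 9.08 and 9.31 in late colon against 6.11, 6.26 and 6.89 in early colon. Of 25 epithelial transcription factors 6 were called higher and 0 lower (11 and 2 unadjusted). Klf4, a factor of differentiated surface cells, rose by 2.27, Cdx1, the caudal homeobox factor, by 1.96, Foxa3, a forkhead factor, by 1.67, and Nr1h4, the bile acid receptor FXR, by 1.67. Cdx2 differed by 0.29 ± 0.09 and was not called (adjusted p = 0.106). Of 19 stem cell and Wnt target genes 0 were called in either direction by limma, with 3 higher and 4 lower at an unadjusted p under 0.05, 3 separated each way and a median of −0.001.

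Energy and sterol metabolism held 8 called higher genes of 63 and 0 called lower, with 38 higher without overlap. Of 27 respiratory chain genes 19 were higher in late colon without overlap but 2 were called, cytochrome c1 (Cyc1) by 0.92 and the oxidase subunit Cox4i1 by 0.56, with a median of 0.41. Of 20 glycolysis and hypoxia genes 12 were higher without overlap and 4 were called, among them the aldolase Aldoa by 0.68, with 11.53, 11.58 and 11.70 in late colon against 10.92, 11.06 and 10.80 in early colon, and the glucose carrier Slc2a1 by 0.43. Of 16 cholesterol synthesis genes 2 were called higher, the synthase Lss by 0.96 and the sterol carrier Stard4 by 0.68. In these 3 lists 0 genes were called lower, and at an unadjusted p under 0.05 they held 19, 11 and 8 higher and 0, 0 and 1 lower genes. Of 19 glucocorticoid response genes Mt1, a metallothionein, was the 1 called, with 8.63, 8.80 and 8.77 in late colon against 6.46, 7.16 and 7.28 in early colon. Among 18 circadian clock genes the clock regulators Bhlhe40 and Npas2 were called higher, by 1.24 and 0.71, and the bZIP factor Tef was called lower, by 0.59 (−0.59 ± 0.11), a direction that its probe set with the highest mean did not show.

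The largest falls were those of Hbb-y and Cldn6. Hbb-y, the embryonic beta-like globin of primitive red cells, read 9.04, 4.88 and 4.72 in late colon against 12.61, 12.36 and 12.18 in early colon (−6.17 ± 1.11, adjusted p = 0.0308). It was thus high through E15.5, lower at E16.5 and at the off level after that. The other embryonic globins, Hba-x and Hbb-bh1, named after their values were seen, were lower without overlap but not called, Hba-x with 5.73, 5.30 and 4.74 in late colon against 9.67, 7.86 and 6.14 in early colon (adjusted p = 0.107) and Hbb-bh1 with 5.40, 5.30 and 5.12 against 8.35, 6.20 and 5.94 (adjusted p = 0.169). The red cell list had a median of −0.0009, with 1 gene of 15 called in each direction, Hbb-y and, upward, Car2, a carbonic anhydrase that the colon lining also makes. Cldn6, a claudin of embryonic epithelia, read 8.11, 6.63 and 6.48 in late colon against 10.59, 10.36 and 9.98 in early colon (−3.24 ± 0.43, adjusted p = 0.0233).

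The other called genes fell by less than 2 on the log2 scale. Fndc3c1, a fibronectin domain gene, read 4.60, 4.38 and 4.34 in late colon against 7.0, 5.93 and 5.61 in early colon, and Tfap2c, an AP-2 transcription factor of early epithelia, read 5.47, 4.67 and 4.68 against 6.69, 6.77 and 6.20. Sap30, a subunit of a histone deacetylase complex, fell by 1.57, Ldb2, a cofactor of LIM domain factors, by 1.53, Dock9, an exchange factor for Cdc42, by 1.49, Zfp647, a zinc finger gene, by 1.43, and Pabpc4l, a relative of poly(A) binding protein, by 1.38. Cdk7, the kinase of the CDK-activating complex and of transcription factor TFIIH, had the third widest gap among the falling genes, with 6.34, 6.11 and 6.29 in late colon against 7.57, 7.45 and 7.52 in early colon (−1.26 ± 0.08, adjusted p = 0.0153). Its values were almost level within each side. That size rests on the median of its probe sets, since the probe set of highest mean gave −0.37 ± 0.14 (adjusted p = 0.154), and on that basis Cdk7 was not called. The same choice put Ldb2 at −1.01 and Tfap2c at −1.66, both not called (adjusted p = 0.0697 and 0.0748), and Dock9 at −0.77, still called.

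Oncofetal and imprinted growth genes were called lower in 6 of 20 and higher in 1. Hmga2, a chromatin protein of embryonic growth, read 10.99, 10.37 and 9.92 in late colon against 12.28, 11.99 and 11.50 in early colon (−1.50 ± 0.31, adjusted p = 0.0392), and Mdk, the growth factor midkine, read 10.60, 10.10 and 9.95 against 12, 11.44 and 11.17. Igf2bp1, an RNA-binding protein of fetal tissue, fell by 0.86 and the imprinted adaptor Grb10 by 0.79, which lost its call with its probe set of highest mean (−0.20, adjusted p = 0.199), while the imprinted transcript Meg3 rose by 0.65. Of 24 SOX and progenitor factors 5 were called lower and 1 higher. Sall4, a factor of pluripotent cells, fell by 1.28, Tead2, a partner of YAP, by 1.10, and Id2, an inhibitor of bHLH factors, by 1.05, while Id4 rose by 1.31. Of 19 posterior Hox genes 1 was called in each direction. Hoxb13 read 8.64, 8.96 and 9.07 in late colon against 6.48, 7.56 and 7.63 in early colon, and Hoxd10 read 10.63, 10.43 and 10.17 against 11.27, 11.05 and 11.22.

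The 5 lists of cell division and growth held 127 distinct measured genes, of which 28 were called lower and 0 higher, and 69 were lower without overlap against 1 higher. Of 29 mitosis genes 16 were lower without overlap and 4 were called, and 0 were higher in either count. Bub1, a kinase of the spindle checkpoint, read 7.04, 6.68 and 6.64 in late colon against 8.02, 7.89 and 7.34 in early colon (−0.96 ± 0.20, adjusted p = 0.0398), and the spindle motor Kif11 read 7.23, 7.16 and 7.02 against 7.81, 7.81 and 7.68 (adjusted p = 0.0233). The checkpoint partner Bub1b and the cytokinesis factor Ect2 fell by 0.68 and 0.58. These are the genes whose promoter stretches are printed above for Bub1 and Kif11. Of 29 DNA replication genes 6 were called lower, among them the licensing factor Cdc6 by 1.07 and the helicase subunits Mcm3 by 0.84 and Mcm2 by 0.68. Of 25 chromatin and DNA methylation genes 9 were called lower, with the HMG box protein Hmgb3 falling by 1.06, the helicase Hells by 1.03 and Ezh2, the methyltransferase of the polycomb complex, by 0.98. Ezh2 read 9.30, 8.85 and 8.62 in late colon against 10.07, 9.93 and 9.70 in early colon. Of 18 mRNA processing genes 5 were called lower, led by the RNA-binding Hnrnpd, which fell by 0.88, and the splicing proteins Lsm3 and Snrpf, which fell by 0.73 and 0.72, and of 26 genes of ribosome biogenesis and Myc 4 were called lower, led by Dkc1, which modifies ribosomal RNA, by 0.82. In these 5 lists limma called 0 genes higher, and at an unadjusted p under 0.05 there were 80 lower and 0 higher genes. With the probe set of highest mean the calls of Bub1, Mcm2, Mcm3 and Hnrnpd were lost (adjusted p from 0.0577 to 0.0807), at differences of −1.05, −0.70, −0.70 and −0.27, Dkc1 fell by 0.52 and Kif11 by 1.07.

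Connective tissue split by gene group. Of 31 collagen and matrix genes 15 were called higher and 0 lower (20 and 0 at an unadjusted p under 0.05), with a median of 0.84. Dpt, the matrix protein dermatopontin, moved most, with 9.36, 10.46 and 10.82 in late colon against 4.74, 4.77 and 5.41 in early colon (5.24 ± 0.39, adjusted p = 0.0172). Lox, the enzyme that crosslinks collagen, rose by 1.97, the proteoglycan decorin (Dcn) by 1.88 and the collagen chain Col1a2 by 1.55. Col1a2 read 10.94, 11.17 and 11.29 in late colon against 9.11, 9.80 and 9.86 in early colon. Mesenchymal factors and signals moved the other way, with 4 of 32 called lower and 0 higher (10 and 2 unadjusted). Wnt5a, a ligand of gut elongation, read 8.22, 7.97 and 7.76 in late colon against 9.58, 9.20 and 9.07 in early colon (−1.30, adjusted p = 0.0233), Meis1, a homeobox cofactor, fell by 1.27, Gli3, a hedgehog effector, by 0.78 and the growth factor Fgf9 by 0.54. Neither Gli3 nor Fgf9 was called with its probe set of highest mean (−0.45 and −0.19, adjusted p = 0.0842 and 0.146). Of 24 smooth muscle genes 6 were called higher, among them the actin-binding Tagln by 1.30, Actg2 by 1.10 and the myosin kinase Mylk by 1.07, and 1 was called lower, the caldesmon gene Cald1, by 0.39. Mylk was at 0.26 and not called with its probe set of highest mean (adjusted p = 0.186). Of 11 pacemaker and Pdgfra-type stroma genes 2 were called lower, Kit, the receptor of interstitial cells of Cajal, by 0.77 and Gucy1b1, a subunit of guanylate cyclase, by 0.64. Among 14 mesothelium genes the median was −0.24 and 1 was called, the keratin Krt7, upward by 0.82, which the lining also expresses. Bnc1, a zinc finger factor of mesothelium named after its values were seen, read 5.33, 5.13 and 5.01 in late colon against 8.42, 7.23 and 5.92 in early colon and was not called (adjusted p = 0.0827).

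Nerve genes numbered 4 called higher and 1 lower of 44, and immune genes 8 and 0 of 82, while the vessel list held 1 call. Of 27 enteric neuron genes 3 were called higher. Vip, the neuropeptide of relaxing motor neurons, read 6.83, 7.97 and 8.51 in late colon against 4.80, 5.63 and 5.72 in early colon (2.39, adjusted p = 0.0340), Tac1, the precursor of substance P, rose by 1.91 and Phox2a, a homeobox factor of autonomic neurons, by 0.57. Of 17 neural crest and glia genes the cadherin Cdh19 fell by 0.90 and the artemin receptor Gfra3 rose by 0.33. Of 24 vessel genes Plvap, a protein of capillary diaphragms, was the 1 called, by 0.74. Of 19 macrophage genes 3 were called higher, the chemokines Ccl6 by 3.72 and Ccl9 by 1.99 and the receptor Mertk by 0.55. Ccl6 read 7.99, 9.40 and 9.85 in late colon against 5.19, 5.28 and 5.61 in early colon. Summed over the 19 genes, the linear intensity was 2578 to 4044 in late colon and 1619 to 1907 in early colon, and 4 of the 19 were at the off level on all 6 arrays. Of 22 antigen presentation and interferon genes 2 were called higher, the class I molecule H2-K1 by 1.62 and the class II chaperone Cd74 by 0.63, and of 10 complement genes 3, the proteases C2 by 2.08, Cfb by 1.42 and C1s1 by 0.50. C2 rose by 0.999 with its probe set of highest mean and Ccl9 by 3.70, while H2-K1 lost its call there (1.43, adjusted p = 0.0531) and C1s1 lost it with centred arrays (0.45, adjusted p = 0.0512). Lymphocyte (20 genes) and mast cell (11 genes) lists held 0 calls by limma, 1 and 0 genes higher and 0 lower at an unadjusted p under 0.05, and 11 and 8 of their genes at the off level on all 6 arrays.

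Lists of neighbouring and unrelated tissues were read to see what else the dissected samples could hold. The liver list had 2 of 18 genes called higher and 1 lower, and its summed linear intensity was 3978 to 9340 in late colon and 2059 to 2353 in early colon. The gain lay largely in Cps1, a mitochondrial enzyme that gut epithelium also makes, with 10.88, 12.02 and 12.21 in late colon against 7.24, 8.0 and 8.84 in early colon, while the transport protein Ttr rose by 1.40 and the retinol carrier Rbp4 fell by 0.79. The pancreas list had 2 of 11 called higher, colipase (Clps) by 1.30 and the carboxypeptidase Cpb1 by 0.39, and the stomach and small intestine list had 2 of 18, the glucose carrier Slc5a1 by 1.53 and the hormone Ghrl by 1.02. The skeletal muscle list had 1 of 17, Actc1, with 9.24, 9.70 and 9.48 in late colon against 6.46, 7.61 and 7.86 in early colon, while its defining factors Myod1 and Myog stayed at the off level. The adipocyte list had 1 of 11, Pparg, which is also an epithelial gene of the colon. By limma 0 genes were called in the squamous and urothelial (14), urogenital ridge (11) and handling response (18) lists, which have medians of 0.02, 0.02 and 0.11 and 0, 0 and 4 higher and 1, 0 and 0 lower genes at an unadjusted p under 0.05. The part of other tissues in the differences above was not tested.

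Genes that separated the sides also moved within them. Among the 2638 genes higher in late colon the median step was 0.05 to reach E14.5, 0.02 to E15.5, 0.28 to E16.5, 0.14 to E17.5 and 0.12 to E18.5, each counted over 1 day. Among the 2579 lower genes the same steps were −0.05, −0.07, −0.22, −0.08 and −0.04. The rule of no overlap fixes the sign of the step across the border, so its size is given as a description. Over the 6 days 534 of the higher and 439 of the lower genes moved the same way on every day. The array next to the border set the edge more often than the others did. E16.5 was the lowest late value in 2018 of the higher genes and the highest late value in 1718 of the lower ones.

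**Figure D4:**
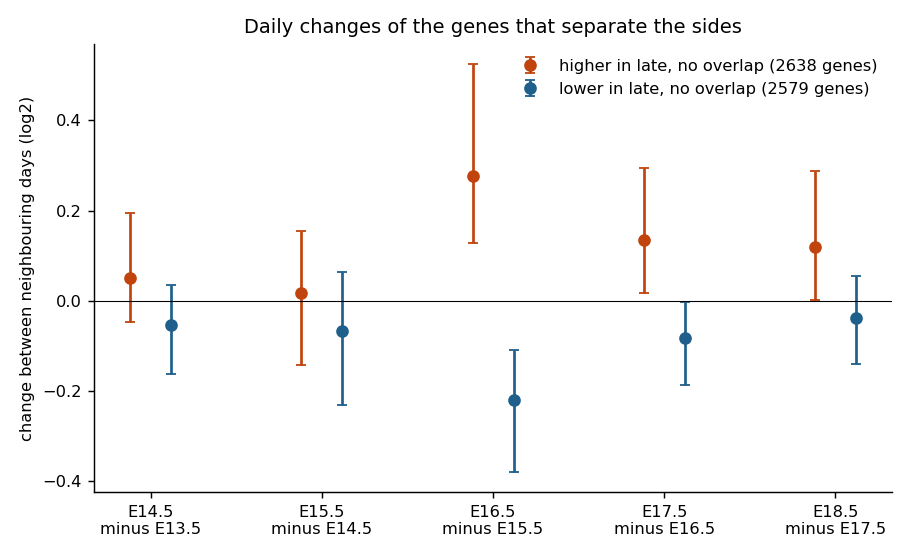
Points are the median change between neighbouring days (log2) over the 2638 genes higher and the 2579 genes lower in late colon without overlap, and bars run between the quartiles. The change from E15.5 to E16.5 is the widest in both sets, 0.28 and −0.22, with its sign fixed by the rule of no overlap, and the higher genes go on by 0.14 and 0.12 over the next 2 days.

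A fit with both side and embryonic day asked whether the sides differed by more than a steady change per day would give. No gene passed an adjusted p of 0.05 in limma, and 423 genes had an upward and 433 a downward step at an unadjusted p under 0.05. Without E16.5, 3 upward and 1 downward step passed. The 4 upward genes with the smallest unadjusted p in the fit of all 6 days were Pglyrp1, Dpt, Klk1 and Hspb6, a small heat shock protein of muscle, with steps of 1.92 ± 0.19, 3.64 ± 0.41, 2.59 ± 0.30 and 1.59 ± 0.22. Hspb6 read 8.31, 8.46 and 8.62 in late colon against 6.42, 6.74 and 6.52 in early colon. The 4 downward genes were Socs4, a suppressor of cytokine signalling, Cdk7, the Golgi GTPase Rab6a and the polycomb ring finger Pcgf3, with steps of −1.12 ± 0.15, −1.19 ± 0.18, −0.82 ± 0.13 and −0.92 ± 0.15. Socs4 read 6.53, 6.61 and 6.86 in late colon against 7.17, 7.25 and 7.48 in early colon. It climbed within each side while the late side stood lower, and its late minus early difference, −0.64, was −0.10 with its probe set of highest mean (adjusted p = 0.831).

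The adult array lay on the late side of most genes that were called. Its 5′ probes also stood lower than those of the embryonic arrays, with a 5′ minus 3′ difference of −2.41 for Gapdh and −2.66 for Actb, against −1.59 to −1.29 and −2.14 to −1.96 on the 6 embryonic arrays. The part of this in the adult values was not tested. Of the 645 genes called higher, the adult value was above all 3 late values in 472 (73.2%), within their range in 82, between the sides in 43 and within or below the early range in 48. Of the 719 called lower, it was below all 3 late values in 575 (80.0%), within their range in 79, between the sides in 47 and within or above the early range in 18. In 10 of the 11 off-to-on genes the adult value was above the late ones, as in Lgals3 with 12.29 and Reg3b with 12.17. Insl5 was the exception, with 9.79 in adult colon inside its late range. The adult has 1 array, so these places carry no test.

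**Figure D5:**
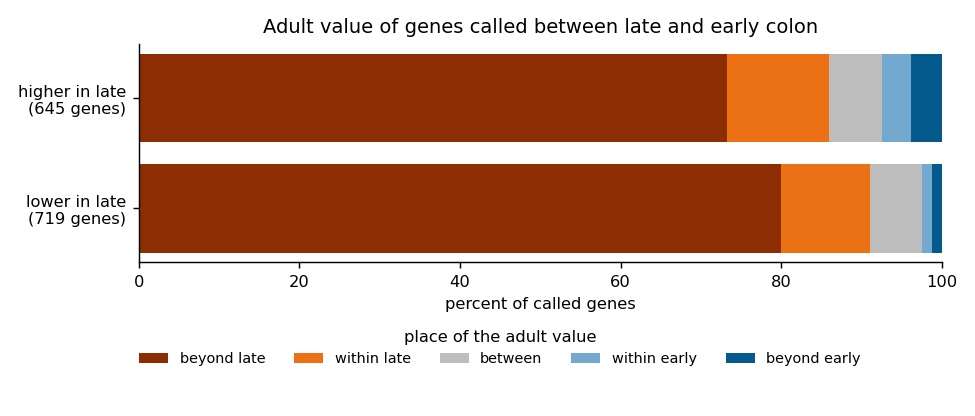
Bars give the percent of the 645 genes called higher and the 719 called lower in late colon by the place of their adult value relative to the 3 late and 3 early values. The adult value lies beyond the late side in 73.2% of the higher and 80.0% of the lower genes.

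A small set rose before birth and stood low again in the adult. Mamdc4, a membrane protein of the endocytic apparatus of fetal enterocytes, read 10.10, 11.08 and 10.99 in late colon against 6.86, 7.29 and 8.87 in early colon, and 6.58 in the adult. Cubn, the uptake receptor cubilin, read 8.45, 9.74 and 10.11 in late colon against 6.38, 6.65 and 7.66 in early colon, and 6.79 in the adult. Both are known from the uptake of protein by the suckling small intestine. Apoa1, the main apolipoprotein of HDL, read 6.99, 10.57 and 11.26 in late colon against 6.91, 6.90 and 6.71 in early colon and 6.61 in the adult, and was not called (adjusted p = 0.158). Actc1, the cardiac actin, Lox and Klk11 shared the pattern, with adult values of 6.59, 5.18 and 4.80. Of the 90 genes at least 2-fold lower without overlap, 0 had an adult value within or above the early range.

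Genes read by several probe sets allowed a repeat within the array. All probe sets of a gene separated the sides the same way in 148 of 281 called higher genes (52.7%) and in 185 of 458 called lower genes (40.4%), and over all separated genes in 307 of 1319 (23.3%) and 343 of 1754 (19.6%). In 101 genes (1.12% of 9012) 2 probe sets separated in opposite directions. Rab11a, a GTPase of recycling vesicles, had 1 probe set at 9.80, 9.96 and 10.20 in late colon against 9.41, 9.53 and 9.02 in early colon and another at 8.30, 8.35 and 8.38 against 9.05, 9.21 and 8.49. Glipr1, Cux1 and Nisch were split in the same manner, with differences of 0.52 and −0.67, 0.52 and −1.11, and 0.49 and −0.79. The median over probe sets placed these 4 genes between −0.31 and 0.14, and none was called. Nisch, at −0.31, was still lower in late colon without overlap. For 152 called genes picked by the rule for named genes, the probe set of highest mean was taken in place of the median. This ended the call in 21 with the direction kept and turned the sign of Tef. The size became over 1.5 times smaller in 15 and over 1.5 times larger in 19. The 152 include genes with 1 probe set, such as Sval1 and Dpt, whose values this choice cannot change. Among genes with several probe sets these shares are therefore higher. Otc stood at 1.63 in place of 2.56 and Id2 at −0.64 in place of −1.05, both still called, while Lox, Slc2a1 and Pcgf3 were among the 21, at 2.57, 0.30 and −0.54 (adjusted p = 0.0677, 0.0750 and 0.0663). Centred arrays ended the call in 3 of the 152, Acadl, C1s1 and Gfra3, and the trend and robust settings in 6, among them Acadl and Lsm3.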

How the data were processed

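The deposited values are log2 expression values that the authors normalized by RMA, run with affy 1.22.1 in R 2.9.2 as listed in the submitters' processing notes. RMA corrects background, gives each array the same distribution and joins the probes of a set, which hides any change common to nearly the whole transcriptome. Each array holds 45101 probe sets. Through the platform annotation 34958 have 1 gene and were used, and 932 with several genes and 9211 without one were not. Names were updated through GRCm38.p6 (18033 of 18195 identifiers matched), and genes with several probe sets took their median. Dim genes were kept. Precision is limited by the number of arrays.

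limma 3.58.1 in R 4.3.3 (lmFit, eBayes) fitted late minus early, and in a second fit side and embryonic day, with Benjamini-Hochberg adjustment over 18194 genes. The functions were tested on simulated data. P-values measure the spread among single arrays of different days. The comparison, the gene lists and the rule for named genes were chosen with earlier results of these data known, so no list was tested as a set. Named genes are the off-to-on genes, and the 10 largest called differences and 5 widest gaps each way. Also named are the 4 smallest p-values for a step each way, up to 4 called members of each list, and tissue markers. The rest are 4 genes with opposed probe sets and 6 whose adult value returned. Clones and gene models were left out of the names. Genes outside this rule, such as Tff3, Spdef, S100a8, Meg3 and Cald1, were named with their values known. Alternatives were the highest-mean probe set of a gene, dropping the dimmest 25% of genes, centred arrays, eBayes with trend and robust settings, a 2-fold limit, other gap, off and on levels, a slope for each side and leaving out each array. Python 3.11.15, numpy 2.4.6, pandas 2.3.3 and matplotlib 3.10.9 were used. Promoter sequences are from RefSeq.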

Additional observations from a re-analysis of the deposited data

Results flagged for a closer look

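Probe sets that name no gene were outside the comparison. Of 9160 such probe sets other than controls, 6 were at least 4-fold higher in late colon with a gap of at least 0.5 between the sides, and 0 were as much lower. Without a size limit 431 of the 9160 were higher and 1273 lower without overlap, beside 2638 and 2579 of the 18194 genes. By share, the lower count was close to that among genes, and the higher count was smaller. The 2 with the largest difference read 5.87, 8.98 and 9.77 in late colon against 4.98, 4.82 and 5.0 in early colon, and 5.91, 8.29 and 9.29 against 4.33, 4.43 and 5.14. They were singled out after their values were seen, and what they measure is not known here.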

How the results depend on the processing

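The called counts were within 1.5 times the reported ones with the probe set of highest mean (842 higher, 926 lower), without the dimmest 25% of genes (783, 831), with centred arrays (617, 1001) and with trend and robust settings (610, 539). A 2-fold limit left 316 and 62. Leaving out each array gave 0 to 1024 called higher and 0 to 1899 called lower genes, 3039 to 4217 and 2940 to 4448 separated genes, 11 to 33 off-to-on and 0 to 1 on-to-off genes, and 0 to 3 upward and 0 to 1 downward steps beyond the slope. A gap of at least 0.5 left 378 separated higher and 110 lower genes, and centring gave 4271 separated lower genes. Off-to-on genes numbered 17 with the off level at the median over all genes, of which 3 were among the 11, and 3 with the on level 2 above the off level. Centring gave 1 on-to-off gene, Zfp141. Tef, at −0.59, was at 0.016 with its probe set of highest mean. The cause of these changes was not tested. With 1 array a day, no value has an error of its own. No paired analysis was possible because the sides hold different days, so no array of one side has a partner in the other.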
